A study of Drosophila melanogaster with 6 samples.

Results

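The genes described here encode the proteins of the mitochondrial ribosome in Drosophila SL2 cells, and the question is how their transcripts differed after RNA interference against Iswi. The members were selected by name, as all probe sets that the platform annotation assigns to exactly 1 gene symbol starting with mRpL or mRpS. A probe set is a group of short array probes for 1 transcript whose signals are combined into 1 value. This rule gave 71 probe sets, 45 named mRpL and 26 named mRpS, for 69 of the 11982 genes that had a probe set with 1 symbol. Both mRpL47 and mRpS11 had a pair of probe sets. Current gene annotation (RefSeq, Release 6) holds 73 such symbols, of which mRpS10 and mRpL53 were listed only on probe sets shared with another gene and were left out with mRpL34 and mRpL37. All 71 probe sets lay above a log2 value of 4 on all 6 arrays, with single values of 6.02 to 12.57, so the filter on dim probe sets removed no member.

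SL2 cells are a line of blood-cell character derived from Drosophila embryos. The cells given ISWI dsRNA received 10 micrograms of double-stranded RNA against Iswi, the gene of the ATPase subunit of several nucleosome remodelling complexes, for 1 hour in medium without serum, and were harvested after 7 days. The cells given GST dsRNA, the comparison group, were handled the same way with dsRNA against GST. The labels also give 10% serum for the cultures of both groups. Each group had 3 biological replicates, with total RNA on 1 array each. No untreated cells were measured, the line carries its own Iswi gene throughout, and the knockdown leaves part of the transcript.

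The mitochondrial ribosome translates the few mRNAs of the mitochondrial genome, which encode core subunits of the respiratory chain and of ATP synthase. Its rRNAs are made inside the organelle, whereas all of its proteins named here are encoded in the nucleus, made in the cytosol and imported. Some of these proteins belong to families shared with bacterial ribosomes and keep the bacterial number, and others are found only in mitochondrial ribosomes. Loss of the proteins of this ribosome is known to impair respiration and growth, in flies for example in mutants of technical knockout (tko), the gene of the mitochondrial S12 protein.

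Values were compared on the deposited log2 scale with limma, a linear model with a shared estimate of the spread, and p-values were adjusted by the Benjamini-Hochberg method over all 7390 tested probe sets. The Iswi probe set read 7.66, 7.74 and 7.16 on the ISWI arrays, against 10.53, 10.54 and 10.47 on the GST arrays. The ISWI group held 12.6% of the GST level (limma log2 change -2.99, standard error 0.14, adjusted p = 7.61e-06), and by an exact permutation test, two-sided, p was 0.1, which no split of 3 against 3 arrays can go below. Across all probe sets, which are not replicates, arrays correlated at 0.9983 to 0.9987 within the ISWI group and 0.9993 to 0.9995 within the GST group. Between the groups they correlated at 0.9938 to 0.9958. All 9 plasmatocyte markers, genes of the phagocytic blood cells of the fly, lay above 4, while 3 of 3 germline markers and 2 of 3 muscle markers did not. Of 6 markers of crystal cells and lamellocytes 5 lay above 4 on at least 1 array. Their summed level was 13.08 to 13.20 on the ISWI arrays and 12.12 to 12.27 on the GST arrays (log2 of the sum). By limma PPO1, betaTub60D, PPO2 and PPO3 rose, with log2 changes of 1.54, 1.35, 0.76 and 0.66, and lz did not pass (0.23). The lamellocyte marker atilla was at or below 4 throughout. The summed plasmatocyte level was 16.63 to 16.78 on the ISWI arrays and 16.72 to 16.79 on the GST arrays, but single markers moved both ways: by limma NimC1 fell (log2 change -0.86, adjusted p = 0.00255) and eater rose (0.75, adjusted p = 0.000153), a Pxn probe set and srp also fell (-0.29 and -0.28), and crq rose (0.22). Of 3 neuronal markers 2 lay above 4, and their summed level was 7.56 to 7.81 on the ISWI arrays and 7.85 to 8.15 on the GST arrays. The summed muscle level, carried by bt, was 9.47 to 9.57 on the ISWI arrays and 9.96 to 10.08 on the GST arrays. The part of these cell type markers in the values below was not tested. The 3' probe set of the eIF-4a control exceeded the 5' probe set by 1.91, 2.26 and 1.86 on the ISWI arrays, against 1.85, 1.75 and 1.69 on the GST arrays. Every ISWI array thus had the greater excess for this control, but ISWI replicate 3 (1.86) lay next to GST replicate 1 (1.85). Such an excess is a sign of RNA quality or labelling, here moving with the group for this control. Its part in the values below was not tested. For actin the excess was 0.55, 1.06 and 0.48 on the ISWI arrays, against 0.55, 0.46 and 0.41 on the GST arrays, where the groups overlapped. GST replicate 1 had a mean 18S rRNA level of 12.99, against 8.31 to 9.30 on the other 5 arrays.

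Most transcripts of the mitochondrial ribosome differed little between the groups. Of the 71 probe sets, 21 (29.6%) passed the adjusted p of 0.05, where 40.2% of all tested probe sets passed. Of these, 14 were lower after ISWI dsRNA (19.7% of the members, against 18.1% of all tested probe sets) and 7 were higher (9.86%, against 22.1%). The median log2 change, ISWI minus GST, was -0.01 over the members and 0.01 over all tested probe sets. Only mRpL28 passed with a change of at least 1.5-fold, 1 of 71, where 12.3% of all tested probe sets did so. The changes also lay closer together: their standard deviation was 0.23 over the members and 0.53 over all tested probe sets. The latter includes extremes of -4.23 and 5.61. The difference lay mostly on the side of rises. The lowest decile ended at -0.395 over the members and -0.427 over all, and the highest began at 0.224 and 0.467. The groups did not overlap for 35 members (49.3%), 21 of them with the ISWI arrays lower and 14 with the ISWI arrays higher, where 54.1% of all tested probe sets did not overlap. Because total RNA of whole cultures was measured, less RNA per cell and fewer cells that hold the RNA cannot be told apart.

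**Figure D1:**
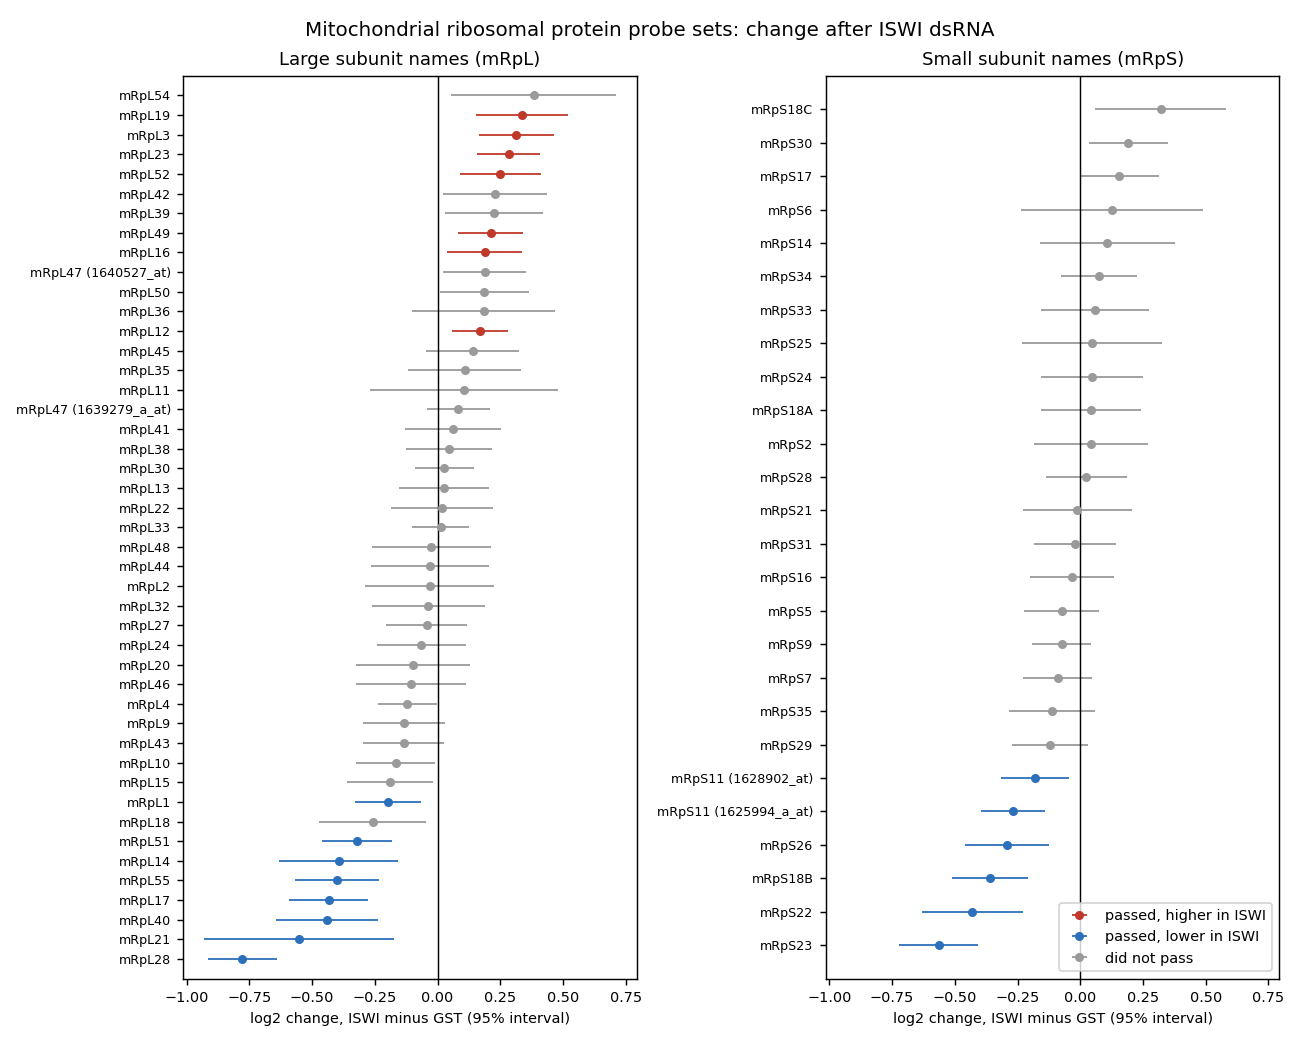
Log2 change of each member probe set, ISWI minus GST (x axis), with its 95% interval from limma, for names mRpL (left) and mRpS (right), sorted by size. Blue marks the 14 probe sets that passed and were lower, red the 7 that passed and were higher, grey the 50 that did not pass; the changes run from -0.78 for mRpL28 to 0.38 for mRpL54.

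The count rested in part on single arrays. Without GST replicate 1 it was 12 passing members (9 lower and 3 higher, with 29.7% of all tested probe sets passing), and without ISWI replicate 1 it was 26 (13 lower and 13 higher, with 40.9%). Leaving out GST replicate 2 gave 3 higher and 11 lower members, with 28.4% of all tested probe sets passing, and leaving out GST replicate 3 gave 4 higher and 10 lower, with 29.1%. The median over the members was 0.04 without ISWI replicate 1, a turn in sign, and the median over all tested probe sets was then 0.03. The member median was also positive without GST replicate 3 (0.0208) and with array weights (0.0008). The medians over all tested probe sets were then 0.0153 and 0.0141. On ISWI replicate 1 the members lay a median of 0.10 below the midpoint of the 2 group means, while they lay close to it on ISWI replicate 2 and 0.07 above it on ISWI replicate 3. Each of the 21 members kept its sign in all 16 alternative settings, and 11 passed in every one, 9 of them lower and 2 higher. With no filter on dim probe sets 15 members (21.1%) passed, where 11.9% of all probe sets did, so that the order of these shares was the reverse of 29.6% against 40.2%. Of the members 14.1% were then lower and 7.04% higher, against 5.15% and 6.77% of all probe sets. In that setting mRpL1, mRpL14, mRpL16, mRpL21, mRpL52 and the second mRpS11 probe set lost their calls. With the arrays scaled again by quantiles mRpL16 and mRpL52 lost theirs, and with centred arrays mRpL16 did. Other forms of the variance estimate or array weights ended the calls of mRpL16 and the second mRpS11 probe set.

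**Figure D2:**
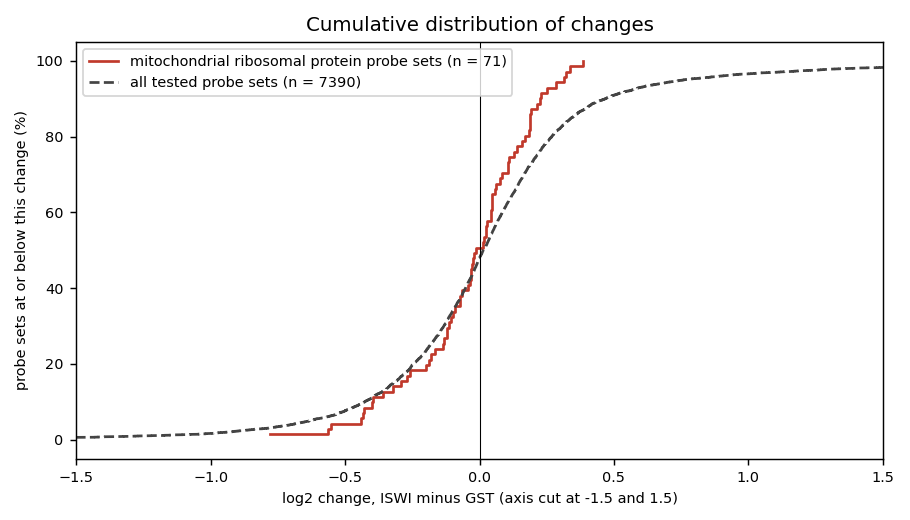
Cumulative share of probe sets (y axis, percent) at or below each log2 change, ISWI minus GST (x axis), for the 71 members (solid red) and all 7390 tested probe sets (dashed grey). The members' curve is steeper, with a standard deviation of 0.23 against 0.53, and both curves cross the middle near 0, at medians of -0.01 and 0.01.

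The bacterial-type proteins of the large subunit held the member with the largest fall. The probe set of mRpL28, whose bacterial relative is a structural protein of the large subunit, read 11.66, 11.80 and 11.67 on the ISWI arrays, against 12.48, 12.41 and 12.57 on the GST arrays. The ranges of the groups were far apart, and the ISWI group held 58.3% of the GST level (limma log2 change -0.78, standard error 0.06, adjusted p = 6.27e-05). The mRpL21 probe set read 6.75, 7.33 and 7.39 on the ISWI arrays, against 7.76, 7.64 and 7.72 on the GST arrays. The groups did not overlap, but ISWI replicate 1 lay well below the other two ISWI arrays. The fall (limma log2 change -0.55, standard error 0.16, adjusted p = 0.0296) was -0.35 without that array, and the call was lost without any 1 of the GST arrays (adjusted p = 0.07 to 0.0926).

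The other members of this kind did not pass. The probe set of mRpL18, whose bacterial relative binds the small 5S rRNA, read 8.19, 8.31 and 8.48 on the ISWI arrays, against 8.64, 8.63 and 8.49 on the GST arrays. The ranges only just failed to overlap, and the log2 change was -0.26 (adjusted p = 0.0563 by limma). The log2 changes of mRpL15, mRpL9 and mRpL20 were -0.19, -0.13 and -0.10, and those of mRpL33, mRpL13, mRpL30, mRpL35 and mRpL36 lay between 0.01 and 0.18. The 95% interval of mRpL33 was -0.10 to 0.13. Of 11 probe sets in this class 2 fell (18.2%) and 0 rose, where 18.1% of all tested probe sets fell and 22.1% rose.

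Of 5 proteins classed here as in or near the peptidyl transferase centre, where peptide bonds are formed, 2 rose and 0 fell. The passing share was 40.0%, near the 40.2% of all tested probe sets. The mRpL3 probe set read 9.06, 9.18 and 9.12 on the ISWI arrays, against 8.77, 8.81 and 8.84 on the GST arrays. Every ISWI array lay above every GST array (limma log2 change 0.31, standard error 0.06, adjusted p = 0.00629), and in bacteria the L3 protein reaches into this centre. The mRpL16 probe set, whose bacterial relative helps to position tRNA, read 10.34, 10.37 and 10.22 on the ISWI arrays, against 10.16, 10.16 and 10.04 on the GST arrays. The groups did not overlap, but the difference was small (limma log2 change 0.19, standard error 0.06, adjusted p = 0.0492), and its call was lost without any 1 array other than ISWI replicate 3 (adjusted p = 0.0904 to 0.159). The log2 changes of mRpL4, mRpL27 and mRpL2, which lie in or near the same core in bacteria, were -0.12, -0.04 and -0.03 and did not pass. Their 95% intervals ran from -0.24 to -0.00, from -0.21 to 0.12 and from -0.29 to 0.23.

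The proteins around the exit tunnel, through which the new chain leaves the ribosome, had 8 probe sets, of which 1 rose, 1 fell and 6 did not pass. The rise and the fall were 12.5% each, where 22.1% of all tested probe sets rose and 18.1% fell. The mRpL23 probe set, for a protein at the tunnel's outlet in bacteria, read 10.56, 10.66 and 10.66 on the ISWI arrays, against 10.34, 10.32 and 10.36 on the GST arrays. All ISWI arrays were higher (limma log2 change 0.28, standard error 0.05, adjusted p = 0.00457). The mRpL17 probe set, for another protein near the outlet, read 9.02, 8.995 and 9.13 on the ISWI arrays, against 9.47, 9.43 and 9.55 on the GST arrays. All ISWI arrays were lower, by a similar distance on each (limma log2 change -0.43, standard error 0.07, adjusted p = 0.0019). Both calls held in all 16 alternative settings. The log2 changes of mRpL24, mRpL32, mRpL22 and mRpL45 were -0.06, -0.04, 0.02 and 0.14, none past the threshold; mRpL45 in mammals ties the ribosome to the inner membrane. For mRpL47, whose mammalian relative belongs to the bacterial L29 family, the probe sets gave 0.08 and 0.19 with limma adjusted p = 0.258 and 0.07, the same sign and no call.

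Both stalks of the large subunit held 1 passing protein, with opposite signs. The mRpL12 probe set read 10.70, 10.70 and 10.74 on the ISWI arrays, against 10.52, 10.57 and 10.54 on the GST arrays. In bacteria several copies of the L12 protein form the stalk that recruits the translation factors, and in flies mRpL12 is needed for growth driven by Cyclin D. The rise was small beside a small spread (limma log2 change 0.17, standard error 0.05, adjusted p = 0.0246), and the call was lost without ISWI replicate 3 or any 1 of the GST arrays (adjusted p = 0.0523 to 0.0902). The mRpL1 probe set, for the protein of the mobile stalk by which the used tRNA leaves, read 9.21, 9.24 and 9.22 on the ISWI arrays, against 9.39, 9.47 and 9.40 on the GST arrays. The groups did not overlap (limma log2 change -0.20, standard error 0.06, adjusted p = 0.0275), and the call was lost on leaving out the same 4 arrays, each in turn (adjusted p = 0.0513 to 0.117). The stalk base proteins mRpL10 and mRpL11 had log2 changes of -0.17 and 0.11, with 95% intervals of -0.32 to -0.01 and -0.27 to 0.48, and did not pass.

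At the face that meets the small subunit, the relatives of the bacterial bridge proteins L14 and L19 moved apart. The mRpL19 probe set read 8.98, 9.23 and 9.06 on the ISWI arrays, against 8.73, 8.77 and 8.75 on the GST arrays, and all ISWI arrays were higher (limma log2 change 0.34, standard error 0.08, adjusted p = 0.0116). The mRpL14 probe set read 8.41, 8.63 and 8.74 on the ISWI arrays, against 9.12, 8.91 and 8.93 on the GST arrays, and all ISWI arrays were lower (limma log2 change -0.40, standard error 0.10, adjusted p = 0.0175). The mRpL14 call was lost without GST replicate 1 (adjusted p = 0.0699), the array with the highest value of this probe set.

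**Figure D3:**
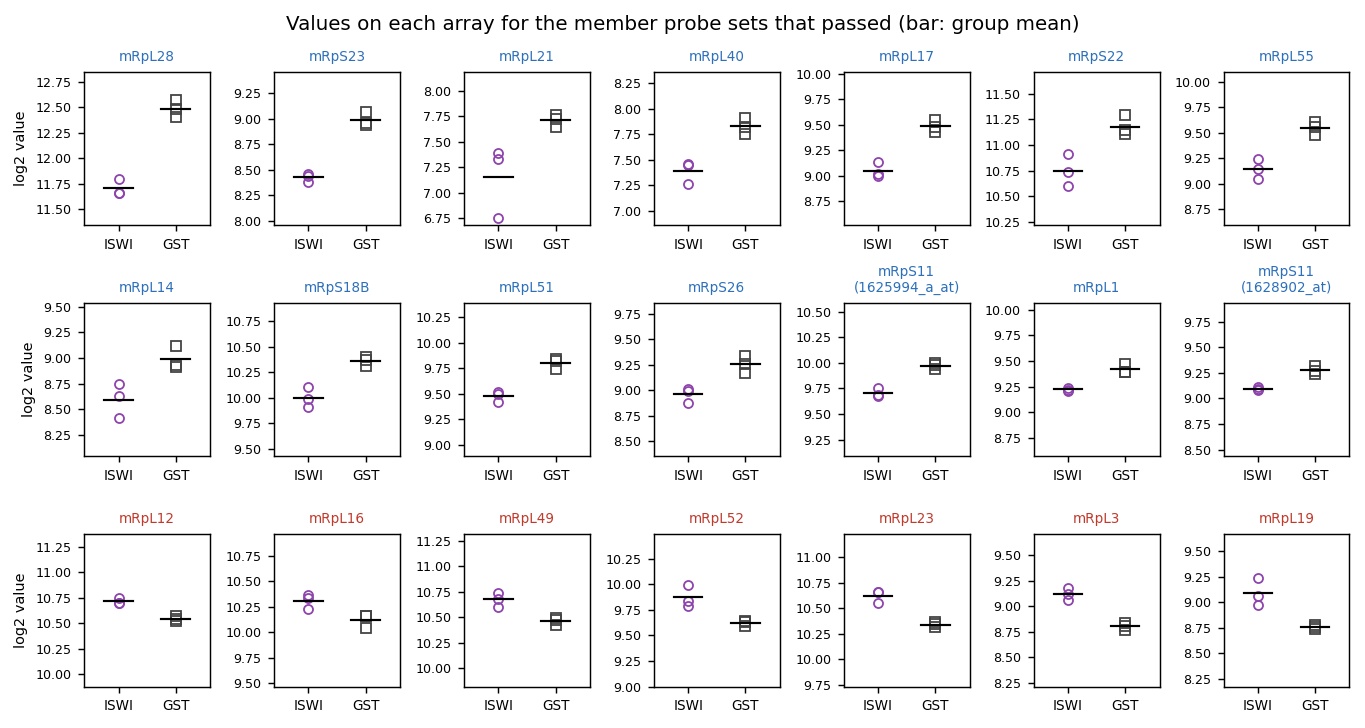
Log2 value on each array (y axis) of the 21 member probe sets that passed, with the 3 ISWI arrays as purple circles on the left and the 3 GST arrays as grey squares on the right of each panel, a bar at each group mean, and the same span of 1.5 on every y axis. Blue titles mark lower and red titles higher members; in every panel the groups do not overlap, and the gap is widest for mRpL28 at 11.66 to 11.80 on ISWI arrays against 12.41 to 12.57 on GST arrays.

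Among the large-subunit proteins found only in mitochondria, 3 of 15 fell and 2 rose. The mRpL40 probe set read 7.27, 7.46 and 7.45 on the ISWI arrays, against 7.91, 7.83 and 7.76 on the GST arrays, with all ISWI arrays lower (limma log2 change -0.44, standard error 0.09, adjusted p = 0.00569). The mRpL55 probe set read 9.14, 9.24 and 9.05 on the ISWI arrays, against 9.60, 9.47 and 9.56 on the GST arrays, and the groups lay apart again (limma log2 change -0.40, standard error 0.07, adjusted p = 0.00354). The mRpL51 probe set read 9.52, 9.42 and 9.50 on the ISWI arrays, against 9.84, 9.74 and 9.82 on the GST arrays, within 0.1 of each other on the ISWI arrays and likewise on the GST arrays (limma log2 change -0.32, standard error 0.06, adjusted p = 0.00416). Each of the falls in mRpL40, mRpL55 and mRpL51 passed in all 16 alternative settings.

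The rises in this class were smaller. The mRpL52 probe set read 9.79, 9.84 and 10.00 on the ISWI arrays, against 9.59, 9.64 and 9.63 on the GST arrays, and the ISWI arrays all lay above the GST arrays (limma log2 change 0.25, standard error 0.07, adjusted p = 0.0231). The call was lost without any 1 of the GST arrays (adjusted p = 0.0659 to 0.0816). The mRpL49 probe set read 10.60, 10.74 and 10.68 on the ISWI arrays, against 10.43, 10.47 and 10.49 on the GST arrays, with no overlap (limma log2 change 0.21, standard error 0.06, adjusted p = 0.019), and the call was lost without GST replicate 1 or GST replicate 2 (adjusted p = 0.0625 to 0.074). The largest positive log2 change of all members, 0.38 for mRpL54, did not pass (limma adjusted p = 0.0645): its ISWI arrays read 7.40, 7.90 and 7.93 and its GST arrays 7.41, 7.38 and 7.31, so that ISWI replicate 1 lay among the GST arrays. The log2 changes of mRpL43, mRpL46, mRpL44 and mRpL48 were -0.14, -0.11, -0.03 and -0.02, and those of mRpL38, mRpL41, mRpL50, mRpL39 and mRpL42 were 0.04, 0.06, 0.19, 0.22 and 0.23, none past the threshold. In mammals mRpL44 has the fold of an RNA-cleaving enzyme and mRpL39 that of a tRNA synthetase.

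Of the 26 probe sets with small-subunit names, 6 fell (23.1%), for 5 of 25 genes, and 0 rose. Of all tested probe sets 18.1% fell and 22.1% rose. Among its mitochondria-specific proteins the mRpS23 probe set read 8.38, 8.46 and 8.44 on the ISWI arrays, against 8.94, 9.07 and 8.96 on the GST arrays. The groups did not overlap (limma log2 change -0.56, standard error 0.07, adjusted p = 0.000537), the largest fall among the mRpS names. The mRpS22 probe set read 10.60, 10.91 and 10.74 on the ISWI arrays, against 11.14, 11.11 and 11.29 on the GST arrays, with ISWI replicate 2 nearest to the GST arrays (limma log2 change -0.43, standard error 0.09, adjusted p = 0.00605). Mutations in human MRPS22 are known to cause mitochondrial disease.

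The mRpS18B probe set read 10.10, 9.99 and 9.91 on the ISWI arrays, against 10.32, 10.37 and 10.40 on the GST arrays, and the groups lay apart (limma log2 change -0.36, standard error 0.07, adjusted p = 0.00363). This probe set carries the suffix of a design whose probes can match several transcripts. The mRpS26 probe set read 8.87, 9.01 and 8.99 on the ISWI arrays, against 9.25, 9.17 and 9.34 on the GST arrays, with no overlap (limma log2 change -0.29, standard error 0.07, adjusted p = 0.0144), and its call was lost without GST replicate 1 or GST replicate 3 (adjusted p = 0.0514 to 0.061). The falls of mRpS23, mRpS22 and mRpS18B passed in all 16 alternative settings.

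The platform of the small subunit, which touches the mRNA at its exit side, held the gene with both probe sets past the threshold. The first mRpS11 probe set read 9.69, 9.75 and 9.68 on the ISWI arrays, against 9.94, 10.00 and 9.98 on the GST arrays, and all ISWI arrays were lower (limma log2 change -0.27, standard error 0.06, adjusted p = 0.00642). The second read 9.09, 9.11 and 9.08 on the ISWI arrays, against 9.27, 9.24 and 9.32 on the GST arrays, also without overlap (limma log2 change -0.18, standard error 0.06, adjusted p = 0.0392), but this call was lost on leaving out any 1 array (adjusted p = 0.0573 to 0.129). The log2 changes of mRpS21 and mRpS6, also of the platform, were -0.01 and 0.13, and mRpS18C reached 0.32, with no overlap but a limma adjusted p = 0.0546.

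In the head and the body of the small subunit 0 of 8 proteins passed, where 40.2% of all tested probe sets did. In the head, which holds the tRNAs, mRpS7, mRpS9 and mRpS14 had log2 changes of -0.09, -0.07 and 0.11, and mRpS24, whose mammalian relative is of the bacterial S3 family, had 0.05. In the body, mRpS5, mRpS16, mRpS2 and mRpS17 had -0.07, -0.03, 0.04 and 0.16. The mitochondria-specific proteins mRpS29, a GTP-binding protein known as DAP3 in mammals, mRpS35 and mRpS31 had -0.12, -0.11 and -0.02. The others grouped with them here, mRpS28, mRpS25, mRpS33 and mRpS34, lay between 0.02 and 0.07. The genes mRpS18A and mRpS30, which in mammals belong to the large subunit despite their names, had 0.04 and 0.19 (limma adjusted p = 0.713 and 0.0571).

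Over all 50 member probe sets that did not pass, the log2 changes ran from -0.26 to 0.38, and 27 of them lay within 0.1 of 0. Their 95% intervals had a median half-width of 0.18 and lay between -0.47 and 0.71, and 49 of the 50 excluded a change of 1.5-fold in either direction. The exception was mRpL54. In 14 of the 50 the groups did not overlap. At the threshold itself mRpL16 passed with a limma adjusted p = 0.0492, and mRpS18C did not with 0.0546.

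A pair of mitochondrial ribosomal proteins carry other names and were outside the rule. The probe set of tko, the S12 protein of the decoding site, read 9.38, 9.66 and 9.69 on the ISWI arrays, against 9.89, 9.69 and 9.85 on the GST arrays. Its ranges overlapped, and the log2 change of -0.23 did not pass (limma adjusted p = 0.0977), though it did with the arrays scaled again by quantiles. The probe set of bonsai, the S15 protein, read 9.80, 9.77 and 9.91 on the ISWI arrays, against 9.73, 9.62 and 9.66 on the GST arrays. Its ISWI arrays were all above its GST arrays, with a log2 change of 0.16 and a limma adjusted p = 0.0854. The probe set shared by mRpL53 and CG33155 rose (limma log2 change 0.45, standard error 0.06, adjusted p = 0.000898), with all ISWI arrays higher. That shared by mRpS10 and CG34316 had a log2 change of 0.06 (limma adjusted p = 0.466). The signal of a shared probe set cannot be assigned to a single gene.

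The members were also split by the number in their names, with no test of the split. The number and the class used above do not always match. Thus mRpL47 and mRpS24 stand among the higher numbers, and mRpS18A and mRpS18B, classed here as mitochondria-specific, among the shared ones. Of 41 probe sets with a number shared with bacterial ribosomes (mRpL up to 36, mRpS up to 21) 8 fell and 5 rose, with a median log2 change of -0.03, and of 30 with higher numbers 6 fell and 2 rose, with a median of 0.05. Of 45 probe sets named mRpL 8 fell and 7 rose (median 0.01), and of 26 named mRpS 6 fell and 0 rose (median -0.02). Beside these counts, 18.1% of all tested probe sets fell and 22.1% rose. By chromosome arm of the RefSeq annotation, 4 of 12 members on 2L fell and 0 rose, where 19.9% of all tested 2L probe sets with 1 symbol fell and 25.5% rose. On 3R 6 of 21 fell and 1 rose, where 16.6% of all such probe sets fell and 23.0% rose. On 3L 3 of 17 (17.6%) fell and 2 rose, near the 17.1% of all that fell, while 22.2% rose. On 2R 0 of 10 fell and 1 rose, where 18.7% fell and 22.0% rose. On the X chromosome 1 of 11 fell and 3 rose, where 16.3% of all tested X probe sets with 1 symbol fell and 19.7% rose. The gene order of that annotation holds 0 pairs of members that are immediate neighbours among protein-coding genes.

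Other genes of mitochondrial gene expression were counted with the probe set of the highest mean for each gene, a count in which 13 of the 69 member genes (18.8%) fell and 7 (10.1%) rose, where 17.6% of all 6011 tested genes fell, 23.4% rose and 41.1% passed in all. Of 10 translation factors and related proteins 2 rose and 0 fell, with a median log2 change of 0.08. The gene GatA, whose enzyme completes the glutamine tRNA of mitochondria, read 7.63, 7.84 and 7.91 on the ISWI arrays, against 7.35, 7.46 and 7.32 on the GST arrays (limma log2 change 0.42, standard error 0.10, adjusted p = 0.0109), and the release factor gene mRF1 read 6.46, 6.63 and 6.73 on the ISWI arrays, against 6.23, 6.22 and 5.89 on the GST arrays (limma log2 change 0.49, standard error 0.13, adjusted p = 0.0181). Neither gene's groups overlapped, and mRF1 did not pass without GST replicate 3 (adjusted p = 0.0585) or with no filter. The elongation factor genes mEFTu1, mEFTs and mEFG1 had log2 changes of -0.13, 0.07 and 0.04 and did not pass.

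Aminoacyl-tRNA synthetases charge the tRNAs. Of 15 genes listed with the mitochondrial ones, Slimp among them, 2 rose and 1 fell (median 0.06). These were 13.3% and 6.67%, where 23.4% of all tested genes rose and 17.6% fell. The CysRS-m probe set read 8.79, 8.85 and 8.67 on the ISWI arrays, against 8.08, 8.24 and 8.14 on the GST arrays, all ISWI arrays higher (limma log2 change 0.62, standard error 0.08, adjusted p = 0.000698). The changes of SerRS-m (-0.48, limma adjusted p = 0.0226) and LeuRS-m (0.24, limma adjusted p = 0.0439) lost their calls on leaving out 1 array, for SerRS-m ISWI replicate 1 or 3 or GST replicate 2 or 3 (adjusted p = 0.0565 to 0.0872), and for LeuRS-m any array but ISWI replicate 1 (adjusted p = 0.0611 to 0.121). LeuRS-m was also lost with no filter, with the arrays scaled again by either method, with robust moderation and with array weights, and SerRS-m with no filter.

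Of 16 genes of mitochondrial transcription and RNA processing 4 rose and 2 fell (median 0.05). Beside this count and that of DNA maintenance below, 23.4% of all tested genes rose and 17.6% fell. The rising share of the 16 genes was thus near that of all tested genes. SLIRP2, of a family that binds mitochondrial mRNA, read 8.77, 8.80 and 8.80 on the ISWI arrays, against 7.96, 7.79 and 7.80 on the GST arrays (limma log2 change 0.94, standard error 0.07, adjusted p = 7.13e-05). RNaseZ, which trims the 3' ends of tRNAs, read 7.98, 8.04 and 7.96 on the ISWI arrays, against 8.88, 8.86 and 8.84 on the GST arrays (limma log2 change -0.87, standard error 0.06, adjusted p = 5.69e-05), and bsf, an RNA-binding protein of the LRPPRC family, fell as well (limma log2 change -0.54, standard error 0.07, adjusted p = 0.000669). For these 3 genes the groups lay clear of each other. The count of risers was 5 without ISWI replicate 1 and 2 without ISWI replicate 2, ISWI replicate 3, GST replicate 2 or GST replicate 3, and also 2 with no filter. Of 4 genes of mitochondrial DNA maintenance the polymerase gene PolG1 (limma log2 change -0.49, standard error 0.11, adjusted p = 0.0095) and the single-strand binding protein gene mtSSB (limma log2 change -0.30, standard error 0.06, adjusted p = 0.00575) fell, and 0 rose.

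Of 18 genes of mitochondrial protein import and quality control 5 fell and 1 rose (median -0.08). These were 27.8% and 5.56%, where 17.6% of all tested genes fell and 23.4% rose. Phb2, for a prohibitin of the inner membrane, read 11.74, 11.76 and 11.69 on the ISWI arrays, against 12.49, 12.33 and 12.40 on the GST arrays (limma log2 change -0.68, standard error 0.05, adjusted p = 6.31e-05). Tim17b, of the inner membrane import channel, and the matrix chaperone gene Hsc70-5 had log2 changes of -0.39 and -0.30 with limma adjusted p = 0.000146 and 0.000364. The single rise, of the protease subunit gene ClpX (limma log2 change 0.15, standard error 0.05, adjusted p = 0.0436), was lost on leaving out any 1 array.

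Among the nuclear-encoded subunits of the respiratory chain and ATP synthase, whose partners the mitochondrial ribosome makes, the genes that passed were all higher after ISWI dsRNA. Of 25 tested complex I subunit genes, of 40 listed, 15 rose and 0 fell (median log2 change 0.19), of 7 of 16 cytochrome c oxidase genes 6 rose and 0 fell (median 0.27), and of 11 of 15 ATP synthase genes 8 rose and 0 fell (median 0.17). Of all tested genes 23.4% rose and 17.6% fell. The member genes had a median of -0.01 and all tested genes a median of 0.03, and the difference between these lists was not tested. Among the examples, ND-B17.2 read 11.60, 11.65 and 11.69 on the ISWI arrays, against 11.21, 11.27 and 11.19 on the GST arrays (limma log2 change 0.42, standard error 0.05, adjusted p = 0.00042), and COX7A read 13.27, 13.36 and 13.31 on the ISWI arrays, against 13.00, 12.95 and 12.96 on the GST arrays (limma log2 change 0.34, standard error 0.04, adjusted p = 0.000339). The ATPsyndelta probe set read 11.62, 11.78 and 11.60 on the ISWI arrays, against 11.32, 11.35 and 11.32 on the GST arrays (limma log2 change 0.34, standard error 0.06, adjusted p = 0.00329). In each the ISWI arrays were all higher. Further examples were ND-B22 and ND-B16.6, with log2 changes of 0.37 and 0.43, COX8 and COX4, with 0.32 and 0.25, and ATPsynE and ATPsynCF6, with 0.26 and 0.17. Leaving out 1 array gave 11 to 16 rising complex I genes, 5 to 7 cytochrome c oxidase genes and 4 to 7 ATP synthase genes, the last with 4 without GST replicate 1 or GST replicate 2 and 5 without GST replicate 3. With centred arrays or no filter 5 ATP synthase genes rose, and with no intensity trend 4. Taking the probe set with the smallest SD of each gene gave 1 complex I gene that fell.

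**Figure D4:**
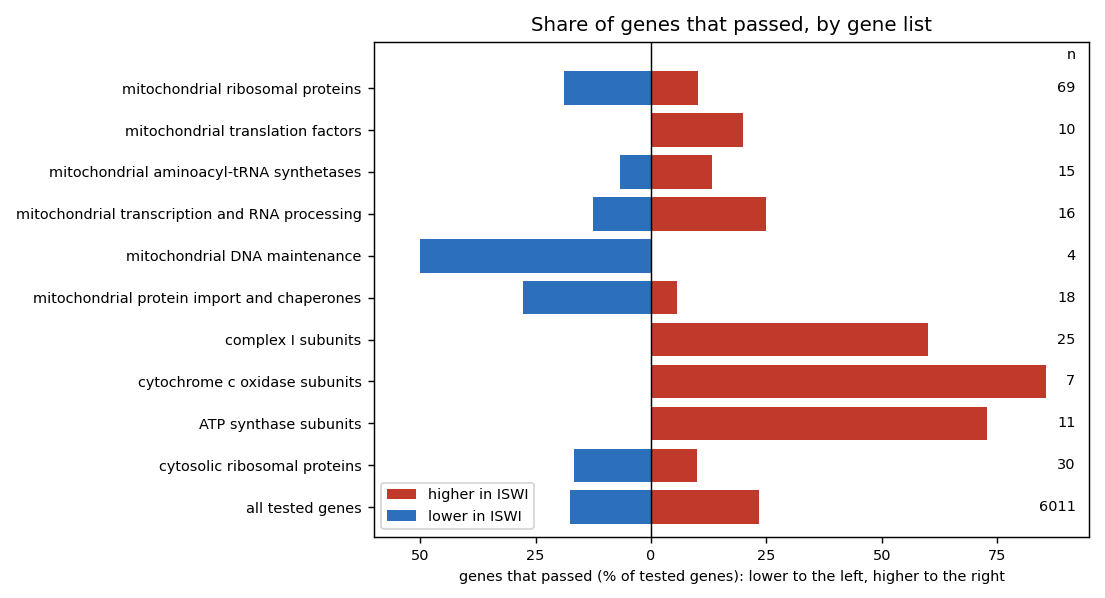
Share of tested genes that passed (x axis, percent), higher in ISWI to the right in red and lower to the left in blue, for the mitochondrial ribosomal protein genes at the top, 9 other lists and all tested genes at the bottom, with the number of tested genes at the right edge. The ribosomal proteins show 10.1% higher and 18.8% lower, all tested genes 23.4% higher and 17.6% lower, and the 3 lists of respiratory chain and ATP synthase subunits have no lower genes.

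The cytosolic ribosome is encoded by a separate set of genes. Of 86 listed genes 34 had a probe set with 1 symbol and 30 were tested. Of these 30, 5 fell (16.7%) and 3 rose (10.0%), where 17.6% of all tested genes fell and 23.4% rose. The log2 changes of these 30 genes ran from -0.12 to 0.40 with a median of -0.02. Of the 30 genes 28 had GST means of 15.10 to 16.22. The highest value of any probe set on these arrays, 16.28, was itself that of a gene on this list, RpL41. Array signal near its upper limit can understate differences, and whether these genes lay near such a limit was not tested. Their small values thus do not show that their RNA changed little. The highest log2 change was that of RpS19b, a paralog, named after its value was seen (limma log2 change 0.40, standard error 0.13, adjusted p = 0.0374). The stalk protein genes RpLP2 and RpLP0 had log2 changes of -0.12 and 0.08 and RpS30 had -0.10, with limma adjusted p = 0.0153, 0.0293 and 0.0118. The count was 2 to 4 lower and 0 to 1 higher on leaving out 1 array: 2 fell without ISWI replicate 1, GST replicate 1 or GST replicate 2 and 3 without ISWI replicate 2 or GST replicate 3, and RpLP0 lost its call without any 1 array but ISWI replicate 1 (adjusted p = 0.0522 to 0.0928) and with centred arrays. The counts were 1 lower and 0 higher with no filter, 0 lower and 1 higher with no intensity trend, and 3 lower with quantile scaling.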

How the data were processed

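Total RNA of 6 cultures, 3 given ISWI dsRNA and 3 given GST dsRNA, was measured on single-colour arrays, and the titles gave each sample's group. The log2 values per probe set were used as deposited. The submitters' processing notes name GCRMA, with its version and settings not stated there; the deposited log2 values have nearly equal quantiles on all arrays, as normalization between arrays gives, so a shift of all transcripts together would not show. Of 18952 probe sets, 183 controls were left out, and of the other 18769 probe sets 7390 exceeded 4 on 3 or more of the 6 arrays and were tested. The level of 4 was chosen, not measured. With arrays, their number limits the precision. All adjusted p-values come from limma 3.58.1 under R 4.3.3, where 1 two-group model was fitted to the whole table and moderated with eBayes and an intensity trend. They are two-sided, adjusted by Benjamini-Hochberg over the 7390 probe sets and called at 0.05. For Iswi an exact permutation test over the arrays was added. The fit was tested on simulated data.

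The members and gene lists were chosen with earlier results of these data known, so lists are described by counts and medians beside those of all tested features. Gene names came from the platform annotation, with all 71 members matched to RefSeq. Named were Iswi, up to 12 falling and 12 rising members with groups that did not overlap, genes with over 1 probe set and up to 3 passing genes of each list by smallest adjusted p. All other members are named with their values; ClpX and RpS19b were named after their values were seen. The classes by place in the ribosome were drawn up with results known, from bacterial and mammalian ribosomes. A planned search of promoters for motifs was not made. Alternatives were other filters, scalings, variance moderation, array weights, a replicate block, a stricter threshold, another probe set per gene and leaving out each array.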

Additional observations from a re-analysis of the deposited data

How the results depend on the processing

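With no filter on dim probe sets, 37 of the genes on the other lists passed, where 56 did in the reported analysis. At an adjusted p of 0.01 the counts were 11 passing members (9 lower, 2 higher), 1749 passing probe sets in all and 28 list genes. The passing shares were then 15.5% of the members and 23.7% of all tested probe sets. Leaving out 1 array in turn gave 12 to 26 passing members, 3 to 13 higher and 9 to 14 lower, a member median of -0.0433 to 0.0402, and 36 to 51 list genes. The same step gave 2100 to 3023 passing probe sets in all, and for Iswi a log2 change of -3.10 to -2.81. With quantile normalization applied again 16 members were lower and 5 higher (20.5% and 20.6% of all tested probe sets), and with centred arrays 17 and 6 (20.4% and 20% of all). The labels do not say whether same-numbered cultures were handled together. Deviations of same-numbered arrays from their group means correlated at -0.18, 0.12 and 0.06, and those of different-numbered arrays at -0.24 to 0.14. With 3 arrays a group these values cannot show whether the cultures were paired. The fit with the replicate number as a block gave 18 passing members (12 lower, 6 higher), all of them among the 21. These were 25.4% of the members, where 38% of all tested probe sets passed. In that fit mRpL1, mRpL12 and the second mRpS11 probe set lost their calls. No single gene with a call changed its direction in the settings tried. Of 113 recomputed counts, medians and Iswi values, 99 stayed within 1.5 times the reported count or, for the median, within the spread between replicates, and of 800 recomputed single-gene values 92 lost a call and 2 gained one. With 3 arrays a group, small changes could be called only where replicates lay close together.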
